A study of Salmo salar with 48 samples.

Results

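The amplicon described here lies on chromosome 3 of the Atlantic salmon (Salmo salar) genome, at positions 13688232 to 13688647. It was chosen by position, with earlier results of these data known. It holds the 16 CpGs that every fish has calls for in this stretch of 416 bp. The series has 107 such CpGs in 7 amplicons. All calls of the chromosome 3 amplicon were on the plus strand. The genome build was not given in the sources used here and the gene at these positions was not analysed here, so the amplicon is named by its place. Liver DNA came from 48 juvenile salmon of the St. John River strain, from commercial breeding stock, with 8 different fish in each of 6 groups. Warm hypoxic fish (WH) were brought to 70% air saturation, acclimated to it, and then warmed by 1 °C each week until 20 °C, having begun at 12 °C. Warm normoxic fish (WN) went through the same warming in water at 100% air saturation. Control fish (CT) stayed at 12 °C and 100% air saturation. Livers were sampled at 4 weeks and at 3 days after the warmed fish had reached 20 °C, and from control fish at the same times. Each treatment was held in 2 tanks that were sampled at both times, with 4 fish from each, so tank and treatment are nested.

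DNA methylation in vertebrates sits mostly on the cytosine of CpG dinucleotides. CpG-rich stretches near active promoters are usually kept free of it, while most other CpGs of the genome are methylated. Bisulfite turns unmethylated cytosine into uracil, which is read as T, so a CpG's level is the percent of its reads that still show C. Cytosines that escape conversion are also read as methylated, and that share was not measured here. Whole liver was used, so a change in the cells that make up the liver and a change of methylation within them cannot be told apart.

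Depth was low and uneven. The median fish had 436 reads per CpG in this amplicon, and the fish ranged from 160 (CT at 3 days, fish 85) to 21254 (CT at 3 days, fish 83). The amplicon took between 0.0755% and 9.86% of the calls of a fish. Within a fish the CpGs had nearly equal depth. The 10 deepest fish all had at least 2838 reads per CpG and the other 38 fish at most 1808. These 10 fish were spread over the groups, with 2 in WH, 1 in WN and 2 in CT at 4 weeks and the same numbers at 3 days. The geometric mean depth of WH fish at 4 weeks was 0.808 times that of CT fish (exact permutation p = 0.734, two-sided), and at 3 days 1.155 times. WN fish had 0.483 times the depth of CT fish at 4 weeks and 0.544 times at 3 days. WH fish had 1.67 times the depth of WN fish at 4 weeks and 2.12 times at 3 days. The 6 treatment comparisons of depth had Benjamini-Hochberg adjusted p-values of 0.591 or more (exact permutation tests), which does not show that depth was equal. A median of 48 methylated calls per fish, from 12 to 2915, stood behind the level of the amplicon.

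The amplicon was nearly unmethylated. Over its 16 CpGs the mean level was 0.692% ± 0.149 (SD, n = 48 fish), with fish between 0.376% and 1.09%. The lowest was fish 98 (WH at 4 weeks), with 20 methylated calls of 5332, or 0.375% of all its calls (95% Wilson interval 0.243% to 0.579%). The highest was fish 96 (WH at 3 days), with 47 of 4329, or 1.09% (Wilson interval 0.817% to 1.44%). These intervals cover counting error only, since PCR reads are not independent molecules. They also treat every call as a separate trial, although calls at different CpGs can come from the same read.

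The CpGs differed in their means, and the 2 highest lay near the middle of the amplicon. Position 13688441 had 1.64% ± 0.686 and position 13688400 had 1.24% ± 0.801 (SD, n = 48 each). Position 13688441 was the highest CpG in 23 of the 48 fish and position 13688400 in 12. The remaining 14 CpGs had means from 0.358% to 0.772%, among them the CpG at 13688404 that lies between the 2 highest. Position 13688441 also had 2.10% fewer calls than the CpG with the most, and position 13688400 had 1.11% fewer, against at most 0.648% at the other 14. The part of the missing calls in the higher levels was not tested.

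In order of their means the other CpGs followed closely on each other. Position 13688232, the first CpG, had 0.772% ± 0.856, position 13688252 had 0.747% ± 0.674 and position 13688637 had 0.735% ± 0.611 (SD, n = 48 each). They were followed by position 13688499 with 0.709% ± 0.658, position 13688604 with 0.700% ± 0.507 and position 13688501 with 0.608% ± 0.566. The SDs over fish were of the size of the means. Position 13688647, the last CpG, had 0.605% ± 0.478, position 13688404 had 0.597% ± 0.532 and position 13688275 had 0.503% ± 0.456. Lower still were position 13688555 with 0.498% ± 0.466, position 13688523 with 0.457% ± 0.528 and position 13688374 with 0.451% ± 0.412. Positions 13688533, with 0.450% ± 0.469, and 13688266, with 0.358% ± 0.395, closed the order. Of the 15 steps between neighbours in this order, 0 passed the threshold. The order was taken from these same means, so neighbours lie close by construction. The steps therefore do not show whether CpGs farther apart in the order differ, and no CpG was tested against all the others. The 2 widest steps were 0.402 points from 13688441 to 13688400 and 0.470 points from 13688400 to 13688232, each with an adjusted p of 0.112 (sign-flip permutation over 48 fish, Benjamini-Hochberg over the 15 steps), and all the others had 0.988. At an unadjusted p under 0.05 these 2 steps were the ones that passed.

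The base that follows the CpG, the one sequence feature the files give, did not sort the levels. The 3 CpGs followed by A had means from 0.358% to 0.772%, the 7 followed by C from 0.503% to 1.24%, the 2 followed by G from 0.450% to 0.700% and the 4 followed by T from 0.451% to 1.64%. These ranges overlap. CpGs were spaced by 2 to 99 bp, with an average of 1 CpG in 26.0 bp.

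**Figure D1:**
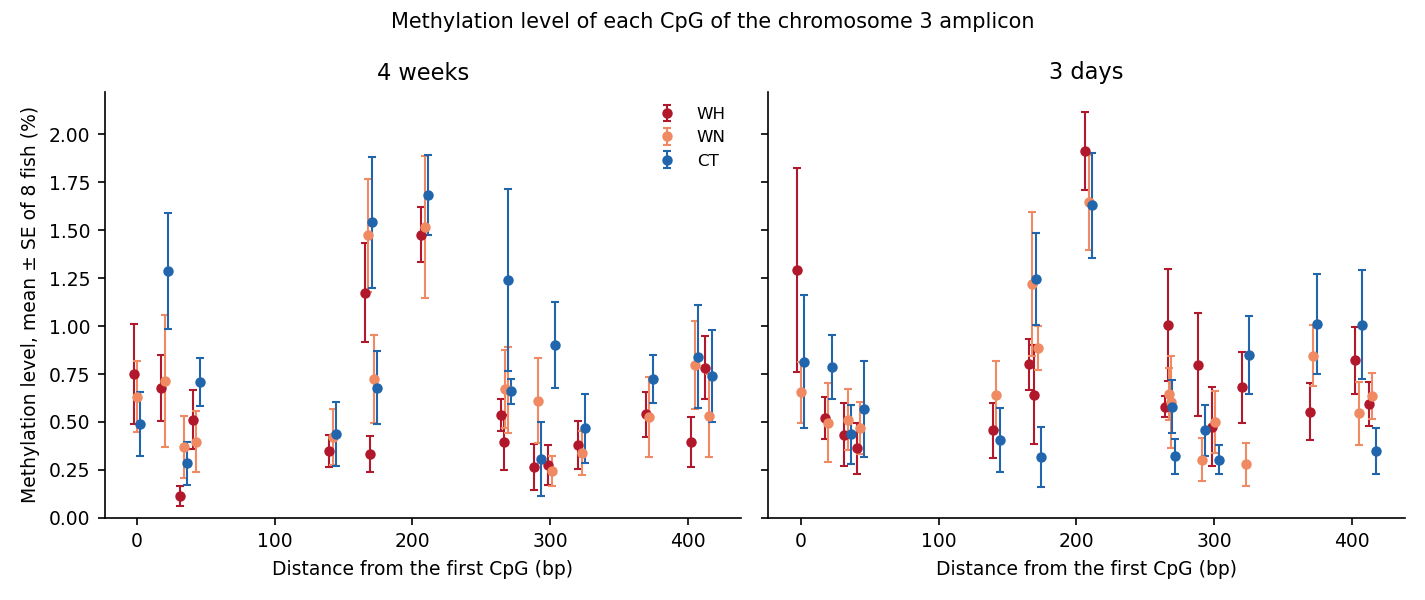
Methylation level in percent (mean ± SE of 8 fish) of each of the 16 CpGs against its distance in bp from the first CpG, at 4 weeks and at 3 days, for WH, WN and CT fish. The CpGs at 168 and 209 bp are the 2 highest over all fish, and at 4 weeks 14 of the 16 WH means lie below the CT mean.

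At most CpGs single fish rested on a handful of methylated calls. Position 13688266 had 0 methylated calls in 16 of the 48 fish, and positions 13688275 and 13688523 in 13 each, while 13688441 had 0 in 1 fish. A count of 0 allows a level of up to 1.88% in the shallowest fish (fish 85) and of up to 0.0141% in the deepest (fish 83). The highest single value of the amplicon was 4.80% at position 13688232 in fish 96 (WH at 3 days), from 13 methylated calls of 271.

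The spread between fish was wider than the error expected from counting independent reads. PCR reads are not independent molecules, and their part in the wider spread was not tested. For the mean of the amplicon, the SD within groups was 0.134 points and the SD expected from counting was 0.0994 points. The latter treats calls at different CpGs as independent, although they can come from the same read. For single CpGs the SD within groups was a median of 1.39 times the counting SD over all fish, with CpGs between 1.15 and 2.06. Among the 10 fish with more than 5 times the median depth the median ratio was 2.66, with CpGs from 1.00 to 5.71, against 1.34 in the other 38 fish. For the deep fish the SD within groups came only from WH and CT fish, with 2 deep fish per group, since each WN group held 1. The counting SD used all 10. On these few fish, the spread itself was not wider in the deep fish. The median SD within groups of single CpGs was 0.309 points in the deep fish and 0.571 points in the others, and the counting SD was 0.113 and 0.414 points in the same 2 sets. The binomial interval of a deep fish is therefore narrower than the spread between such fish. Correlations between CpGs over fish were weak. Over the 120 pairs of CpGs, centred within groups, Pearson's r had a median of -0.00890 and ranged from -0.322 to 0.446, which is given as a description over 48 fish that share their libraries and sparse counts.

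The comparison of WH with CT fish at 4 weeks gave the one difference in the mean of the amplicon that passed the threshold among the 9 comparisons of 2 groups. The 8 WH fish had levels from 0.376% to 0.679% with a median of 0.570%, against 0.660% to 0.956% with a median of 0.799% in the 8 CT fish. The ranges overlapped by 1 fish of each group, since WH fish 117 at 0.679% lay above CT fish 110 at 0.660%. WH fish averaged 0.560% ± 0.0948 and CT fish 0.812% ± 0.103 (SD, n = 8 each). The difference of -0.252 percentage points (95% interval -0.359 to -0.146) passed with an exact permutation p of 0.000311, two-sided, and an adjusted p of 0.00186 over the 6 amplicons tested. This was 1 of the 6 amplicons, or 16.7%. As a share of the CT level the difference was -31.1%, with an interval of -44.2% to -18.0%. The level includes any unconverted cytosines, whose share was not measured, so this is not a percent of the methylation itself. In the same fish the chromosome 16 amplicon stood at 0.555% in WH and 0.519% in CT, and the chromosome 14 amplicon at 1.66% and 1.29%. The amplicon at 44947109 of chromosome 4 was also lower in WH fish, at 0.428% against 0.565% in CT fish.

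The lower WH level at 4 weeks was seen among deep and shallow fish alike. The 2 WH fish with more than 5 times the median depth had 0.556% and 0.657%, against 0.804% and 0.956% in the 2 such CT fish. The 6 remaining WH fish averaged 0.544%, against 0.789% in the 6 remaining CT fish. Without the deep fish the difference was -0.245 points (exact permutation, adjusted p = 0.0260). Weighting fish by their reads gave -0.249 points (exact permutation, adjusted p = 0.00466), and a covariate for log10 depth gave -0.244 points (permutation, adjusted p = 0.000480). Within sex the difference was -0.279 points (exact permutation, adjusted p = 0.00340). Leaving out any 1 fish gave -0.274 to -0.226 points, and leaving out any 1 of the 4 tanks gave -0.281 to -0.223 points (exact permutation, adjusted p of 0.0364 or less).

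With tanks as the unit the call depended on which tank means entered. At 4 weeks the WH tanks T1 and T6 averaged 0.531% ± 0.120 and 0.589% ± 0.0651, and the CT tanks T3 and T4 0.823% ± 0.106 and 0.800% ± 0.116 (SD, n = 4 fish each). Both WH tanks were below both CT tanks. limma on the 12 tank means of both times, on the log2 ratio of methylated to unmethylated calls, gave an adjusted p of 0.0899 and so did not pass, and limma on the 6 tank means of 4 weeks gave 0.0103.

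**Figure D2:**
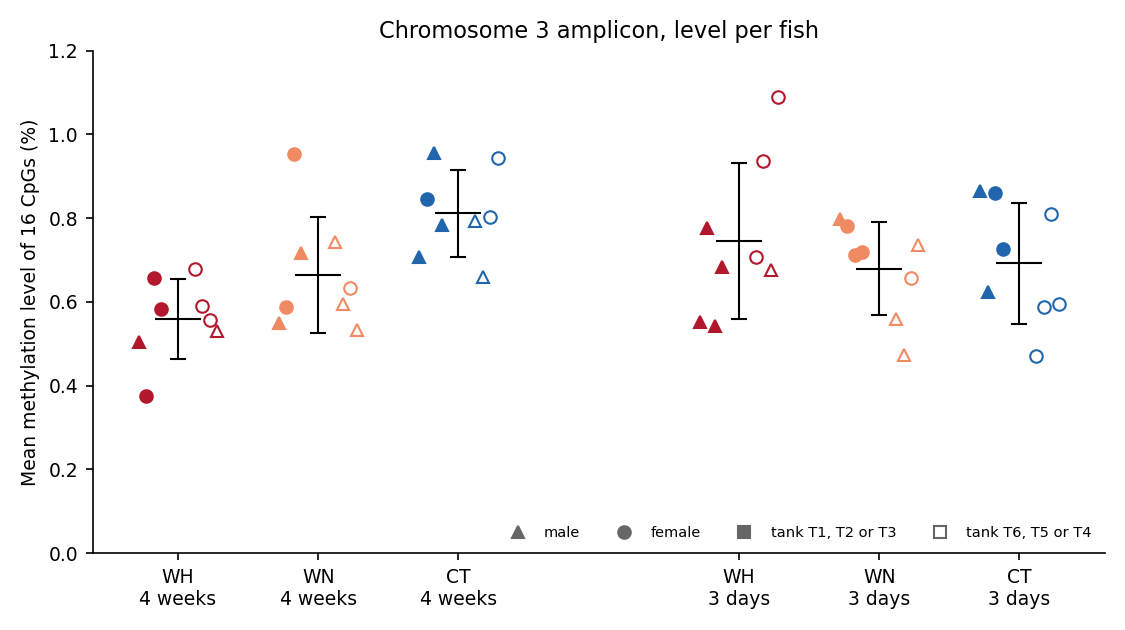
Mean methylation level in percent of the 16 CpGs in each of the 48 fish, by treatment and time. Bars are group means with SD (n = 8), triangles are males and circles females, filled for tanks T1 (WH), T2 (WN) and T3 (CT) and open for T6 (WH), T5 (WN) and T4 (CT). At 4 weeks WH fish lie between 0.376% and 0.679% and CT fish between 0.660% and 0.956%.

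No single CpG passed in this comparison. At 4 weeks 0 of the 16 CpGs passed the threshold between WH and CT fish by the exact permutation test, or 0% of the 94 CpGs tested, and limma on M-values called 0 as well. At an unadjusted p under 0.05 stood 1 of the 16, with 2.13% of all 94. The direction was shared, with 14 of the 16 CpGs lower in WH fish, where 57.4% of the 94 CpGs were lower. The median difference of the 16 was -0.201 points, and they ran from -0.705 points at 13688499 to 0.260 points at 13688232. Each end rested on 1 fish. Without CT fish 105, at 4.23%, the difference at 13688499 was -0.278 points, and without WH fish 98, at 2.39%, the difference at 13688232 was 0.0258 points. At position 13688533 WH fish had 0% to 0.797% with a median of 0.238%, against 0% to 1.63% with a median of 0.991% in CT fish. The groups overlapped there, and the difference of -0.625 points had an exact permutation p of 0.0284 (adjusted p = 0.866). At position 13688252 WH fish had a median of 0.523% with a highest value of 1.55%, against a median of 0.916% and a highest of 2.47% in CT fish. That difference of -0.609 points had an exact permutation p of 0.101 (adjusted p = 0.866). Position 13688266 was the lowest of the WH means at 4 weeks, at 0.113% ± 0.150, against 0.283% in CT fish.

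WN fish at 4 weeks lay between the 2 other groups. Their 8 levels ran from 0.534% to 0.953% with a median of 0.615%, against 0.660% to 0.956% with a median of 0.799% in CT fish, and 5 of the 8 WN fish lay below every CT fish. The means were 0.665% ± 0.138 in WN and 0.812% ± 0.103 in CT fish (SD, n = 8 each). The difference of -0.147 points (95% interval -0.274 to -0.0146) had an exact permutation p of 0.0333, which did not pass after adjustment (adjusted p = 0.1995, with 0% of the 6 amplicons passing). WN fish 103 was the highest of its group at 0.953%. Without this fish the difference was -0.188 points and passed (exact permutation, adjusted p = 0.0177). It was the only one of the 16 runs without a fish to pass, with adjusted p-values up to 0.377 (exact permutation). Over the 18 other settings, permutation and limma, the adjusted p ran from 0.0970 to 0.789 and none passed. WH fish were at 0.560% ± 0.0948 and WN fish at 0.665% ± 0.138, a difference of -0.105 points (95% interval -0.233 to 0.0170) that did not pass (exact permutation p = 0.0936, n = 8 each, adjusted p = 0.281). It was -0.0637 points without WN fish 103 and -0.0147 points with fish weighted by their reads (exact permutation, adjusted p = 0.471 and 0.797). These data therefore do not separate WH from WN fish at 4 weeks in this amplicon. The interval reaches a difference of -35.1% of the WN level, any unconverted cytosines included.

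The CpGs of these comparisons did not pass either. Between WN and CT fish at 4 weeks 0 of 16 passed (0% of the 94), 1 of 16 had an unadjusted p under 0.05 (4.26% of the 94), and 11 of 16 were lower in WN fish (44.7% of the 94). At position 13688533 WN fish had a median of 0.262% and no value over 0.521%, against a median of 0.991% in CT fish, a difference of -0.657 points (exact permutation p = 0.0204, adjusted p = 0.584). This was also the CpG with the smallest p between WH and CT fish, which use the same CT fish, so the shared position is no independent repeat. At position 13688275 WN fish had a median of 0.260% and CT fish 0.626%, a difference of -0.311 points (exact permutation p = 0.146, adjusted p = 0.982). Between WH and WN fish 10 of 16 were lower in WH fish (64.9% of the 94), 0 passed (0%) and 0 had an unadjusted p under 0.05 (3.19%). Their smallest p-values were at 13688404, with medians of 0.384% in WH and 0.723% in WN fish (exact permutation p = 0.134, adjusted p = 0.906, and a difference of -0.391 points that was -0.236 points without WN fish 114), and at 13688637, with medians of 0.348% in WH and 0.987% in WN fish (exact permutation p = 0.146, adjusted p = 0.906).

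**Figure D3:**
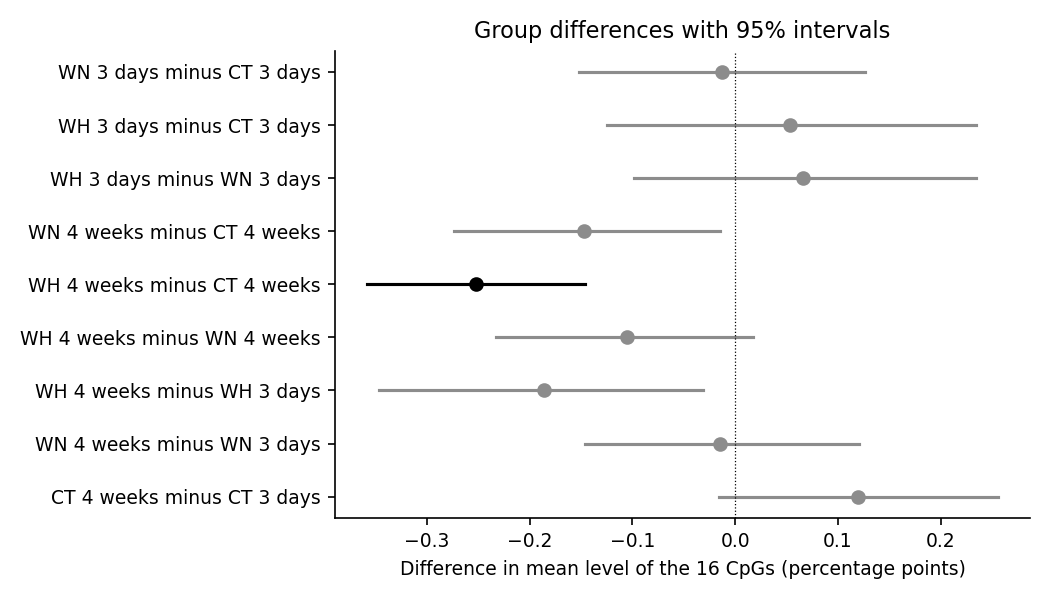
Difference in the mean level of the 16 CpGs in percentage points for the 9 comparisons of 2 groups (points), with 95% intervals from the exact permutation test (lines). Black marks the one with an adjusted p under 0.05, WH minus CT at 4 weeks at -0.252 points, and grey the others, of which 2 have intervals that leave out 0 before adjustment.

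At 3 days no treatment comparison passed. WH fish ran from 0.542% to 1.09% with a median of 0.695%, WN fish from 0.473% to 0.798% with a median of 0.715%, and CT fish from 0.471% to 0.866% with a median of 0.675%. All 3 ranges overlapped widely. The difference between WH and CT fish was 0.0535 points (95% interval -0.125 to 0.235, exact permutation p = 0.537, n = 8 each). With fish weighted by their reads it was -0.233 points (exact permutation, adjusted p = 0.287). The 2 deep WH fish were at 0.542% and 0.677%, against 0.809% and 0.860% in the 2 deep CT fish. Its direction is thus not settled by these data. The difference between WN and CT fish was -0.0127 points (95% interval -0.152 to 0.126, exact permutation p = 0.842) and that between WH and WN fish 0.0663 points (95% interval -0.0980 to 0.235, exact permutation p = 0.418). Without WH fish 96, the highest of all fish, the difference was 0.00435 points between WH and CT fish and 0.0171 points between WH and WN fish. All 3 stayed short of the threshold after adjustment, as did the other 5 amplicons (0%).

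Single CpGs at 3 days again did not pass. Between WN and CT fish 0 of 16 passed (0% of the 94) and 2 had an unadjusted p under 0.05 (7.45%). One was position 13688404, where WN fish had a median of 0.907% and all had methylated calls, against a median of 0.188% and 4 fish with none among CT fish (exact permutation p = 0.0154, adjusted p = 0.368). The other was position 13688555, with a median of 0.229% in WN and 0.737% in CT fish (exact permutation p = 0.0235, adjusted p = 0.368). The first was higher and the second lower in WN fish, and 8 of the 16 CpGs were lower (39.4% of the 94). Between WH and CT fish 7 of 16 were lower in WH fish (57.4%), 0 passed (0%) and 1 had an unadjusted p under 0.05 (7.45%). At position 13688501 WH fish ran from 0.331% to 2.87% and CT fish from 0% to 0.722%, with 4 WH fish above every CT fish (difference 0.685 points, exact permutation p = 0.00730, adjusted p = 0.343). Leaving out WH fish 94, at 2.87%, gave 0.420 points (adjusted p = 0.456, exact permutation). At position 13688400 WH fish had a median of 0.808% and CT fish 1.27% (exact permutation p = 0.125, adjusted p = 0.751). Between WH and WN fish 9 of 16 were lower in WH fish (58.5%), 0 passed (0%) and 0 had an unadjusted p under 0.05 (5.32%). The lowest p-values stood at 13688555, with means of 0.681% in WH and 0.278% in WN fish (exact permutation p = 0.0772, adjusted p = 0.721), and at 13688523, with 0.798% in WH and 0.302% in WN fish (exact permutation p = 0.113, adjusted p = 0.780).

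Between the 2 times no treatment group passed on its own (0% of the 6 amplicons in each). WH fish averaged 0.560% ± 0.0948 at 4 weeks and 0.746% ± 0.187 at 3 days (SD, n = 8 each). The difference of -0.186 points (95% interval -0.347 to -0.0311) had an exact permutation p of 0.0174 (adjusted p = 0.104). It passed without WH fish 73 of 3 days, at -0.214 points (adjusted p = 0.0401), without WH fish 75 of 3 days, at -0.215 points (adjusted p = 0.0354, exact permutation), and in limma on M-values (adjusted p = 0.0436). It came to 0.00155 points with fish weighted by their reads (exact permutation, adjusted p = 0.992). CT fish averaged 0.812% ± 0.103 at 4 weeks and 0.692% ± 0.145 at 3 days, a difference of 0.119 points (95% interval -0.0155 to 0.256, exact permutation p = 0.0797, n = 8 each, adjusted p = 0.478). Weighted by reads it was 0.0176 points (exact permutation, adjusted p = 0.768). WN fish averaged 0.665% ± 0.138 at 4 weeks and 0.680% ± 0.112 at 3 days, a difference of -0.0151 points (95% interval -0.146 to 0.121, exact permutation p = 0.815, n = 8 each).

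No CpG passed between times in any treatment, by the exact permutation test or by limma on M-values. At an unadjusted p under 0.05 stood 0 of the 16 in WH fish (7.45% of the 94), 0 in WN fish (3.19%) and 2 in CT fish (3.19%). In WH fish 12 of the 16 CpGs were lower at 4 weeks (41.5% of the 94), and the smallest p was at 13688501, with a median of 0.364% and 3 fish at 0 methylated calls at 4 weeks against a median of 0.717% and none at 0 at 3 days (exact permutation p = 0.0507, adjusted p = 0.557, with 0% of the 94 passing). The difference of -0.613 points was -0.347 points without fish 94 of 3 days. In CT fish 6 of the 16 were lower at 4 weeks (40.4% of the 94), and the smallest p was at the same position, with medians of 0.665% at 4 weeks and 0.314% at 3 days (exact permutation p = 0.0101, adjusted p = 0.924, with 0% of the 94 passing). Position 13688501 thus had its highest group mean, 1.01%, in WH fish at 3 days and its lowest, 0.321%, in CT fish at 3 days. In WN fish 9 of the 16 were lower at 4 weeks (43.6% of the 94), and the smallest p was at 13688533, with medians of 0.262% at 4 weeks and 0.476% at 3 days (exact permutation p = 0.186, adjusted p = 0.972, with 0% of the 94 passing). That difference of -0.254 points was -0.127 points without WN fish 78 of 3 days.

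Whether the gap between WH and CT fish changed with time was tested directly. It was -0.252 points at 4 weeks and 0.0535 points at 3 days, and the difference of these, -0.306 points, passed with fish weighted equally (permutation of residuals, p = 0.00241, two-sided, adjusted p = 0.0145, 1 of the 6 amplicons or 16.7%). It kept passing without any single fish, with values from -0.335 to -0.256 points (adjusted p of 0.0321 or less). It also passed without the 10 deep fish, at -0.391 points (permutation, adjusted p = 0.00726). The call did not hold when fish were weighted by depth. With fish weighted by counting variance plus variance between fish, which lets the weights differ by at most 4.27 times, it was -0.204 points (permutation, adjusted p = 0.154). With weights equal to the reads, which differ by 133 times, it was -0.0159 points (permutation, adjusted p = 0.892). It also missed the threshold without tank T6, at -0.228 points (adjusted p = 0.216), and without tank T4, at -0.240 points (adjusted p = 0.270, permutation). The 4-week gap between WH and CT fish held under those weights, and the 3-day gap is where the settings parted. WH groups held 2 males and 6 females at 4 weeks, and 5 males and 3 females at 3 days. CT groups held 5 males and 3 females at 4 weeks, and 2 males and 6 females at 3 days. Neither this test nor the comparisons between times took sex into account, and the part of sex in them was not tested. For WN against CT the difference of differences was -0.134 points (permutation p = 0.127, adjusted p = 0.381), and for WH against WN it was -0.171 points (permutation p = 0.0797, adjusted p = 0.301), with 0% of the 6 amplicons passing in each.

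**Figure D4:**
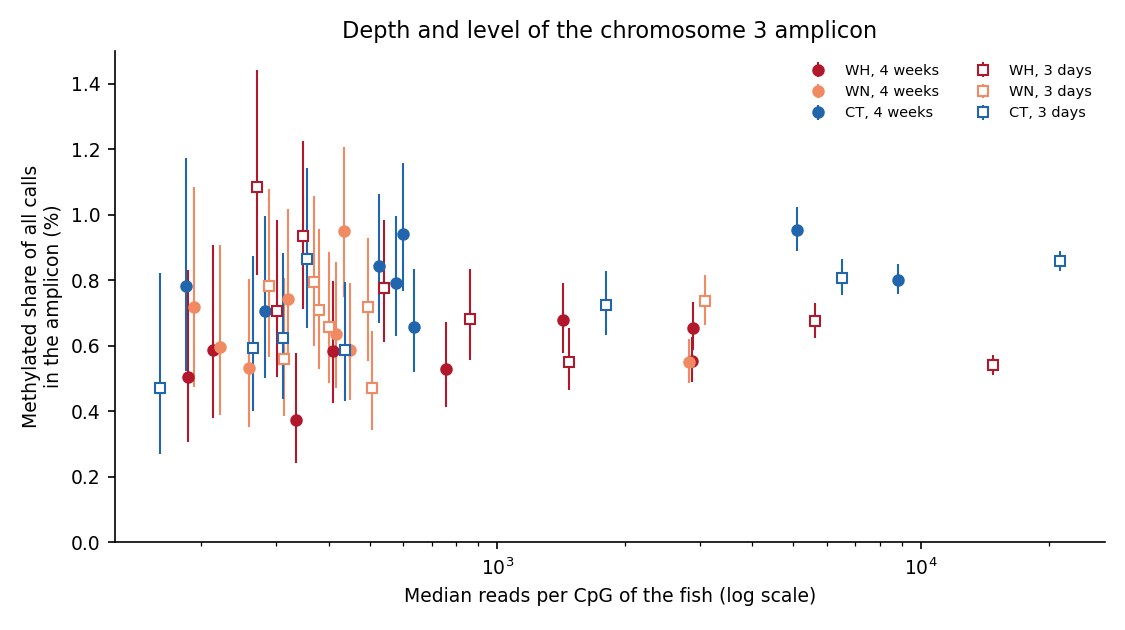
Methylated share of all calls in the amplicon in percent against the median reads per CpG of the fish (log scale), with 95% Wilson intervals for counting error, filled circles for 4 weeks and open squares for 3 days. Intervals narrow towards the deep fish, where the 2 WH fish of 3 days lie near 0.541% and 0.676% and the 2 CT fish of 3 days at 0.859% and 0.808%.

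No relation between depth and level passed a test. Log10 reads per CpG and the level of the amplicon had a Pearson r of 0.128 (permutation p = 0.385, adjusted p = 0.630) and a Spearman rho of 0.158 (permutation p = 0.282, adjusted p = 0.506) over 48 fish. Centred within the 6 groups, r was 0.0805 (permutation p = 0.630) and rho 0.107 (permutation p = 0.498). Without fish 75 and 83, the 2 farthest from the median depth, r was 0.141 (permutation p = 0.350). These were 4 relations with adjustment over the 4.

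Tanks of one treatment lay close together at 4 weeks and farther apart at 3 days. At 4 weeks the 2 tanks of a treatment differed by 0.0582 points in WH, 0.0758 points in WN and 0.0233 points in CT, all less than the WH minus CT difference of -0.252 points. At 3 days they differed by 0.214 points in WH, 0.146 points in WN and 0.154 points in CT, each more than any treatment difference at that time. The 0.214 points between the WH tanks at 3 days came near the size of the 4-week WH minus CT difference of -0.252 points. Averaged over both times, WH tank T1 was at 0.585% and T6 at 0.721%, a difference of -0.136 points (exact permutation within times, p = 0.0645, adjusted p = 0.114 over the 3 treatments). WN tank T2 was at 0.727% and T5 at 0.617% (exact permutation p = 0.0763, adjusted p = 0.114), and CT tank T3 at 0.796% and T4 at 0.708% (exact permutation p = 0.169). None passed. The widest gap was among WH fish at 3 days, with 0.639% ± 0.112 in T1 and 0.853% ± 0.197 in T6 (SD, n = 4 each). There the 4 fish of T1 were all male and T6 held 3 females and 1 male, so tank and sex cannot be told apart in that group.

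Males had lower levels than females in 5 of the 6 groups. The exception was CT at 3 days, with a mean of 0.745% in 2 males and 0.675% in 6 females. Over all fish 23 males averaged 0.668% ± 0.128 and 25 females 0.714% ± 0.165 (SD). Within groups the difference was -0.0909 points, with a permutation p of 0.0247 that did not pass after adjustment (adjusted p = 0.148, 0% of the 6 amplicons). The adjusted p ranged from 0.0548 to 0.403 over its alternatives. The sex gap was widest in WH fish at 3 days, with means of 0.647% in 5 males and 0.911% in 3 females. In that group tank T1 held only males. In WN fish at 3 days most males were in tank T5 and most females in tank T2. The test of sex did not take tank into account, and the part of tank in it was not tested. Males were lower at 13 of the 16 CpGs, where 43.6% of the 94 were lower, and 0 of the 16 passed (0% of the 94). The smallest p was at 13688501, with a median of 0.532% in males and 0.488% in females but a within-group difference of means of -0.414 points (permutation p = 0.0111, adjusted p = 0.522). There the highest female, fish 94, had 2.87%.

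Set beside the 3 other amplicons of low methylation, the chromosome 3 amplicon was neither the lowest nor the highest. Its level of 0.692% was above that of the chromosome 16 amplicon (0.539%, higher in 43 of 48 fish) and of the amplicon at 44947109 to 44947524 of chromosome 4 (0.505%, higher in 39 of 48 fish), and below that of the chromosome 14 amplicon (1.36%, higher in 3 of 48 fish). Each of these level differences had a permutation p of 1e-05, the smallest that the resamples can give. Its spread within groups was 19.3% of its mean, against 10.3% on chromosome 16, 26.3% at that place on chromosome 4 and 33.1% on chromosome 14. Its median depth of 436 reads per CpG was far below theirs, of which the lowest was 10434.5 on chromosome 16.

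The difference between WH and CT fish at 4 weeks was larger here than in the chromosome 16 amplicon, but not shown to be larger than in the chromosome 4 amplicon. Taken within fish, the chromosome 3 difference of -0.252 points minus the chromosome 16 difference of 0.0360 points was -0.288 points (95% interval -0.399 to -0.182, exact permutation p = 0.000155, the smallest possible, adjusted p = 0.000466 over 3). The amplicon at 44947109 of chromosome 4 had a difference of -0.136 points, or -24.1% of its own CT level (exact permutation p = 0.0511, adjusted p = 0.153). Against that amplicon the difference of differences was -0.116 points (95% interval -0.309 to 0.0801, exact permutation p = 0.219). Against chromosome 14, whose difference was 0.374 points, it was -0.626 points (95% interval -1.24 to -0.0277, exact permutation p = 0.0393, adjusted p = 0.0590). That last value passed without WH fish 99, at -0.759 points (adjusted p = 0.00793), without WH fish 119, at -0.707 points (adjusted p = 0.0378), without tank T1, at -1.07 points (adjusted p = 0.0182), and without the deep fish, at -0.809 points (adjusted p = 0.00974, exact permutation). It was -0.185 points without tank T6 (exact permutation, adjusted p = 0.376).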

How the data were processed

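Bisulfite amplicon reads of liver DNA were processed by the authors. Bismark 0.20.0, Bowtie2, Trim Galore 0.4.4 and MultiQC 1.9 are listed in the submitters' processing notes, and their settings, the build and the bisulfite conversion are not given in the sources used here. Per the file headers, the deposited values are whole-number counts of methylated and unmethylated calls per CpG and fish, without normalization. From these, levels were computed as 100 times methylated over all calls, for CpGs with at least 30 reads, and the amplicon's level as the unweighted mean over its CpGs. Groups, sex and tank come from titles and characteristics.

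Tests ran over the whole table. Groups were compared by the difference of means over fish with exact permutation of all 12870 splits (Python 3.11.15, NumPy 2.4.6, SciPy 1.17.1), and time dependence, sex and correlations with 100000 resamples. P-values were Benjamini-Hochberg adjusted over the 94 CpGs or 6 amplicons of a comparison, at a threshold of 0.05. The amplicon of chromosome 15 was not tested for lack of depth. M-values are log2((methylated + 1) / (unmethylated + 1)), fitted with limma 3.58.1. Alternatives were other coverage minimums, weights and depth settings, and leaving out fish, tanks or CpGs. The tests of single CpGs between groups, of time dependence and of sex were checked on simulated data. For time dependence and sex the simulated fish all had the same spread, so that check does not cover the uneven depth of these fish. For single CpGs the simulated spread between fish was the observed SD, to which counting error was added again, and negative levels were cut off. That simulation therefore differs from these data. The test of the amplicon mean between groups, the comparisons with other amplicons, the steps between CpGs, and the depth, weighted, covariate and tank analyses were not checked on simulated data. All 16 CpGs are named, and with a test the 2 of smallest p per treatment comparison or the 1 of smallest p per time or sex comparison. The amplicon and these rules were chosen with earlier results of these data known. P-values treat fish as the unit. No 2 fish of a group had identical counts in the amplicon.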

Additional observations from a re-analysis of the deposited data

Results flagged for a closer look

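The test of whether the gap between WH and CT fish differs between times passed in this amplicon, at -0.306 points (permutation p = 0.00241, adjusted p = 0.0145), with the limits given above for weighting by depth and for tanks T6 and T4. A fish far from the others was looked for in 37 sets of values, each of 1 quantity in 1 group of 8 fish. Of these sets 5 were flagged, where chance flags about 5% of sets. The sets share the same fish and are not independent. On the log10 scale of reads per CpG, WN fish 101 of 4 weeks stood at 3.45 with the next fish at 2.65, and WN fish 92 of 3 days at 3.49 with the next at 2.70, so that each WN group held 1 deep fish. At position 13688404 CT fish 84 of 3 days had 1.27% and the next fish 0.485%. At position 13688501 WH fish 94 of 3 days had 2.87% and the next 1.49%. At position 13688400 WH fish 93 of 3 days had 0%, with 0 methylated calls, and the next 0.718%. Fish 93 had a median of 301.5 reads per CpG, where a count of 0 allows a level of up to 0.995%, above that next value.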

How the results depend on the processing

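No paired analysis was possible because the numbers in the labels name single fish and no number occurs in 2 groups, so that no fish can be matched between groups. The tanks, sampled at both times, could serve as a block. With fish permuted within tanks, 4 weeks minus 3 days had an adjusted p of 0.0759 in WH, 0.957 in WN and 0.446 in CT fish (exact permutation), and none passed. The WH minus CT difference at 4 weeks kept its direction and passed under every alternative run except limma on 12 tank means, where it was -0.54 on the M-value scale (adjusted p = 0.0899). The difference of the WH minus CT gaps between times was -0.204 points with fish weighted by counting plus between-fish variance, -0.0159 points weighted by reads, -0.240 points without tank T4 and -0.228 points without tank T6, and none of these passed. Those 4 settings were chosen after seeing the data, as were all runs of this test without a single fish or a tank. The same holds for the limma fit on 12 tank means and the runs without the fish with most calls outside the amplicons. In limma on M-values WH fish at 4 weeks minus 3 days was -0.38 and passed.

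Some comparisons that had not passed changed direction, again without passing. WH minus CT at 3 days was -0.233 points weighted by reads, -0.0456 points weighted by both variances, -0.0233 points without tank T4 and -0.0533 points without tank T6. WH minus WN at 3 days was -0.104 points weighted by reads, -0.00651 points without tank T5 and -0.0406 points without tank T6. WN minus CT at 3 days was 0.0641 points without tank T3, 0.0601 points without tank T5, 0.0265 points without the deep fish and 0.0193 points with depth as a covariate. WN at 4 weeks minus 3 days was 0.00935 points without the deep fish and 0.00118 points without the 3 fish with most calls outside the amplicons. Weighted by reads, WH at 4 weeks minus 3 days was 0.00155 points and the difference of WH minus WN gaps between times 0.0893 points. The gap to the chromosome 14 difference was -0.809 points without the deep fish and -1.07 points without tank T1, and passed in both.

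Leaving out 1 fish at a time, WN minus CT ranged from -0.0444 to 0.0168 points at 3 days and from -0.188 to -0.127 points at 4 weeks. WH at 4 weeks minus 3 days ranged from -0.215 to -0.137 points and WN at 4 weeks minus 3 days from -0.0562 to 0.00362 points. WH minus CT and WH minus WN at 3 days ranged from 0.00435 to 0.0827 points and from 0.0171 to 0.0954 points, WH minus WN at 4 weeks from -0.124 to -0.0637 points and CT at 4 weeks minus 3 days from 0.0877 to 0.144 points. For the gap to the chromosome 14 difference the range was -0.759 to -0.449 points. The single CpGs named with a difference between groups, refitted in the same way after seeing the data, kept their direction and did not pass. Coverage minimums of 10 and 100 reads and the share over all reads changed no call, but they could hardly do so. The shallowest fish had a median of 160 reads per CpG, above both minimums. With nearly equal depth within a fish, the share over all reads is close to the mean of the CpGs. The count of CpGs past the threshold stayed at 0 under each alternative run for it. The cause of these changes was not tested. Depth limits the precision of single fish, since 35 of the 48 fish had under 1000 reads per CpG.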
